A study of Arabidopsis thaliana with 27 samples.

Results

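Transcripts of Arabidopsis thaliana plants labelled gox2 were compared with those of wild-type (WT) plants when no cadmium (Cd) was given. The comparison holds 6 of the 27 arrays of the series, 3 labelled gox2 control and 3 labelled WT control, chosen by those labels and not by any measured value. All plants were of ecotype Col-0. In both groups seedlings had grown on solid MS medium and were then kept in a solution free of Cd, and each replicate pooled at least 5 plants. The control labels write the mutant as atgox with no number, and only the Cd labels of the same line name GOX2. The overexpression line, called 35S::GOX2 here after the study, is written s35S in the labels. The study's methods name gox2-1 as their gox2 line. The tissue is labelled leaves, whereas the growth and extraction notes speak of seedlings. The study's methods and its table of data sets also give seedlings for these arrays. The other 7 groups, which are 35S::GOX2 without Cd and all 3 genotypes after 30 min or 24 h of Cd, entered the fit only to share its estimate of the spread. Each SE, interval and adjusted p of that fit thus holds the spread within all 9 groups, not that of the 6 arrays alone.

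Glycolate oxidase (GOX) is a peroxisomal enzyme of photorespiration, the pathway that salvages the 2-phosphoglycolate made when RuBisCO takes up oxygen in place of carbon dioxide. It turns glycolate into glyoxylate and releases hydrogen peroxide, which catalase removes inside the peroxisome. In green tissue GOX1 and GOX2 are the main isoforms, and both lie beside each other in the RefSeq annotation (assembly TAIR10.1). Loss of GOX2 is therefore studied as a way to lower peroxisomal hydrogen peroxide.

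The targeted gene did not set the arrays labelled gox2 apart in the way the label would. GOX2 (AT3G14415) read 14.16, 14.21 and 14.02 on the gox2 control arrays, against 13.69, 13.77 and 13.72 on the WT control arrays, on a log2 intensity scale on which a difference of 1 is a doubling. The arrays labelled gox2 were thus the higher ones, by 0.40 ± 0.118 (SE, n = 3 each, adjusted p = 0.0163 in limma). Over the whole series the GOX2 level fell into 2 separate ranges. It lay between 9.60 and 10.45 on 9 arrays, those labelled gox2 Cd 30 min, 35S::GOX2 control and WT Cd 30 min, and between 13.63 and 14.35 on the other 18. Arrays labelled gox2 lay in both ranges, at 9.79 to 10.04 for Cd 30 min and at 13.71 to 14.08 for Cd 24 h. Where in GOX2 its probes lie is not given in the sources used here, and whether they cover the part that the gox2-1 allele disrupts was not tested. The same feature was read on all arrays, so its probes alone do not set arrays of 1 label line apart. Because of these values every group below is named as its arrays are labelled, and each direction is that of the labels. The rise did not pass the threshold without gox2 control replicate 2 (adjusted p = 0.0614) or without WT control replicate 1 (adjusted p = 0.05), nor with the array slide as a random block (adjusted p = 0.0737).

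**Figure D1:**
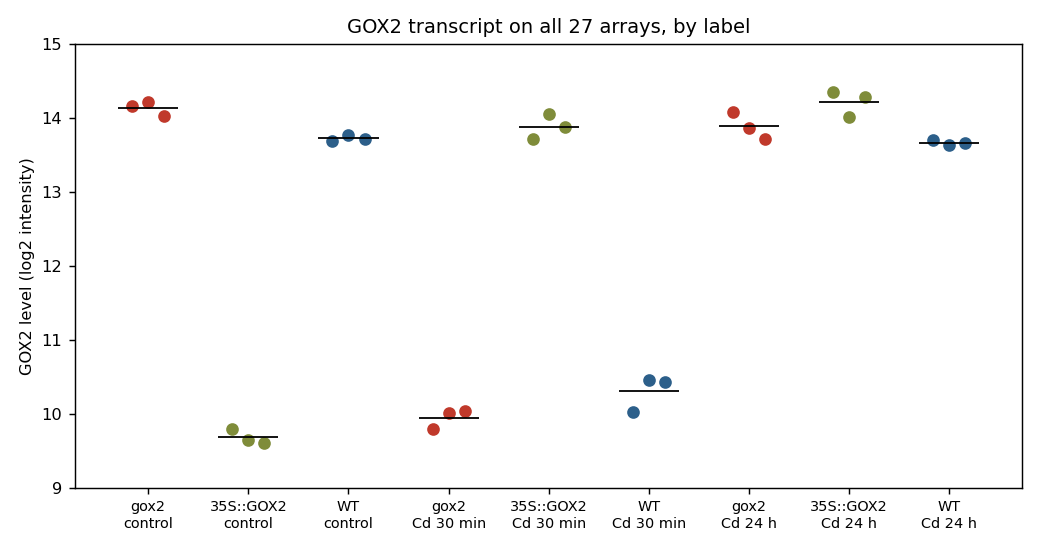
GOX2 level (log2 intensity, y axis) on each of the 27 arrays, grouped by label (x axis), with points for single arrays and lines for the mean of 3. The 3 gox2 control arrays lie between 14.02 and 14.21, above the WT control arrays at 13.69 to 13.77, and 9 arrays of 3 other labels lie at 10.45 or below.

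The 3 gox2 control arrays also differed among themselves. After each feature was centred over the 27 arrays, replicate 1 correlated at r = 0.30 with replicate 2 and at r = 0.22 with replicate 3, and at r = 0.72 and 0.68 with the arrays labelled 35S::GOX2 Cd 24 h replicates 3 and 1. Replicates 2 and 3 correlated at r = 0.66 with each other and at r = 0.70 and 0.69 with gox2 Cd 24 h replicate 1. These values describe features of the same arrays and carry no test. The WT control arrays were nearest each other, at r = 0.73 to 0.75. A range of at least 1 (log2) among the 3 arrays of a group was seen for 3.78% of features in gox2 control and for 0.709% in WT control. No label names a slide, and slide here stands for the leading characters of each array's image identifier. By that reading all gox2 control arrays were on 1 slide and all WT control arrays on another, so that slide and genotype cannot be told apart. A fit with slide as a random block cannot separate them either, and a call kept in it does not set a slide effect aside. No detection call comes with the array values, and low intensities are given as levels only.

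Of 37118 features on the array, 9996 (26.9%) differed between gox2 control and WT control at an adjusted p under 0.05, with 4505 (12.1%) higher and 5491 (14.8%) lower in gox2 control. The arrays of both groups did not overlap for 44.7% of features (20.3% higher and 24.4% lower in gox2 control). A difference of at least 1 in log2 was reached by 1280 of them (3.45% of features), 799 higher and 481 lower. The call held for 4557 features (12.3%) whichever of the 6 arrays was left out, 5.46% of features being higher and 6.81% lower. The number of calls fell to 5783 without gox2 control replicate 3 and to 6348 without WT control replicate 2, and to 4157 with slide as a random block. Gene lists are described below with 1 feature per locus, the brightest, and set beside all 32627 loci, of which 27% were called, 11.8% higher and 15.2% lower in gox2 control, with a median difference of -0.028. Calls that held whichever array was left out made up 12.4% of loci, 5.31% higher and 7.09% lower. The lists were chosen with earlier results of these data known, so setting them beside all loci describes them and is no test.

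Photorespiration changed little in size. Of 22 measured genes of the pathway 7 rose, none fell and 15 did not pass the threshold, with a median difference of 0.01. Among all loci 11.8% were higher and 15.2% lower. The rises were AOAT2 (0.53), GOX2 (0.40), CAT2 (0.32), AGT (0.28), GGT1 (0.24), GOX1 (0.19) and GDCH (0.18). AOAT2, the relative of the peroxisomal glutamate:glyoxylate aminotransferase GGT1, read 13.47, 13.65 and 13.73 in gox2 control, against 13.12, 12.96 and 13.17 in WT control (adjusted p = 0.000249). It was the only one of the 7 that was called whichever array was left out, and also the only one called with slide as a random block. CAT2, the main leaf catalase, read 14.48, 14.51 and 14.49 in gox2 control and 14.14, 14.16 and 14.22 in WT control, without overlap (adjusted p = 0.0291). AGT, the peroxisomal serine:glyoxylate aminotransferase, read 15.32, 15.36 and 15.20 against 15.06, 14.97 and 15.02, while GDCH, the H protein of glycine decarboxylase, read 14.74, 14.65 and 14.84 against 14.60, 14.50 and 14.58. Leaving out single arrays left between 2 and 4 rises, the fewest without WT control replicate 2.

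The remaining photorespiratory enzymes did not pass the threshold. PGLP1, the phosphoglycolate phosphatase at the pathway's entry, differed by 0.085 (adjusted p = 0.499), and HPR, hydroxypyruvate reductase, by -0.011 (adjusted p = 0.948). The serine hydroxymethyltransferase SHM1 differed by 0.005, the glycine decarboxylase P proteins GLDP1 and GLDP2 by -0.089 and 0.134, and chloroplast glutamine synthetase GS2 by -0.035. The 95% confidence interval of the PGLP1 difference ran from -0.10 to 0.27, and that of HPR from -0.21 to 0.19.

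Within the GOX family the 2 leaf isoforms rose and the other 3 measured members did not pass the threshold. GOX1 (AT3G14420) read 15.52, 15.41 and 15.36 in gox2 control and 15.27, 15.23 and 15.21 in WT control, a difference of 0.19 ± 0.059 (SE, n = 3 each, adjusted p = 0.0198). The arrays of both groups did not overlap for the feature read for either isoform. Other GOX1 features differed by 0.051 to 0.398, and those at 0.051 and 0.228 overlapped between the groups. GOX1 and GOX2 are near copies of each other, and how far each feature takes signal from its neighbour was not tested. On the arrays where GOX2 read 9.60 to 10.45, GOX1 stayed between 14.99 and 15.23. GOX3, an isoform best known from roots, differed by -0.154 (adjusted p = 0.601), with a second feature at -1.164 (adjusted p = 0.0826). HAOX1 and HAOX2, the hydroxy-acid oxidases of the family, differed by -0.184 and -0.247, with adjusted p of 0.0713 and 0.0788.

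Antioxidant enzymes that changed were mostly higher. Among 26 catalases, superoxide dismutases and enzymes of the ascorbate and glutathione cycle, 8 rose and 2 fell, with a median of 0.04. The shares over all loci were 11.8% higher and 15.2% lower. CSD2, the chloroplast copper/zinc superoxide dismutase, led them with 13.23, 13.68 and 13.40 in gox2 control, against 11.61, 11.55 and 11.51 in WT control. That is a difference of 1.88 ± 0.380 (SE, n = 3 each, adjusted p = 0.00165), and the lowest gox2 array stood well above the highest WT array. Its cytosolic relative CSD1 rose by 0.66 (adjusted p = 0.00163) and the plastid iron superoxide dismutase FSD2 by 0.48 (adjusted p = 0.000386). APX5, an ascorbate peroxidase, fell by 0.66 (adjusted p = 0.0257). The count of rises was 4 without gox2 control replicate 3 or without WT control replicate 2, 5 without gox2 control replicate 2, and 4 with slide as a random block, in which CSD2, CSD1 and FSD2 were still called.

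CCS (AT1G12520), the chaperone that loads copper into these dismutases, was looked up after the values of CSD1 and CSD2 were seen. It read 13.42, 13.70 and 13.51 in gox2 control and 12.36, 12.36 and 12.43 in WT control, a difference of 1.16 ± 0.244 (SE, n = 3 each, adjusted p = 0.00219). Its other features differed by 0.91 and 1.12. The iron dismutase FSD1, which plants use in place of the copper enzymes when copper is scarce, differed by -0.073 (adjusted p = 0.513), with 15.16, 14.92 and 15.13 against 15.20, 15.12 and 15.11.

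Of 18 peroxins, which serve peroxisome biogenesis, 4 rose and 2 fell, beside 27% of all loci called, 11.8% higher and 15.2% lower. PEX11D, one of the PEX11 proteins that drive peroxisome division, read 13.28, 13.55 and 13.34 in gox2 control and 12.48, 12.40 and 12.61 in WT control, a rise of 0.89 ± 0.124 (SE, n = 3 each, adjusted p = 0.000137). PEX11E rose by 0.40, and the import proteins PEX13 and PEX22 by 0.54 and 0.45. All 4 rises held whichever array was left out. They were also called with slide as a random block, which cannot separate slide from label here. Of 21 genes of peroxisomal beta-oxidation and the glyoxylate cycle 3 rose and 2 fell, with 1 rise without gox2 control replicate 2, gox2 control replicate 3 or WT control replicate 2, and no rise and 1 fall with slide as a random block. They included the citrate synthase CSY3 (0.67), the acyl-CoA oxidase ACX2 (0.33) and the acyl-CoA synthetase LACS6, which fell by 0.25.

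The largest rises and falls were picked among called features whose arrays did not overlap between groups, so that lack of overlap is no result. The rises reached more than 6 log2 units. PAP85 (AT3G22640), a vicilin-like seed storage protein, read 12.07, 12.22 and 11.64 in gox2 control, against 5.48, 5.97 and 5.43 in WT control. The difference of 6.35 ± 1.277 (SE, n = 3 each, adjusted p = 0.00157) is given without a fold, since no detection call shows the WT levels to lie above background. Its SE holds the spread within all 9 groups. The SD was 0.3 in gox2 control and 0.3 in WT control, while PAP85 read 11.91, 6.14 and 5.98 in gox2 Cd 24 h. AT4G25580 followed with 11.93, 12.31 and 11.64 in gox2 control and 6.5, 6.12 and 6.58 in WT control, a difference of 5.56 (adjusted p = 0.00358). THA1, a threonine aldolase, read 14.44, 14.46 and 14.21 against 9.53, 9.51 and 9.16, a 31.3-fold rise (adjusted p = 0.00108). For all 3 the gox2 arrays lay far above every WT array.

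GLYI7, a member of the glyoxalase I family, rose by 4.63 (24.8-fold, adjusted p = 0.00139), the late-embryogenesis protein M17 by 4.15, the lipase MPL1 by 4.05, and MIOX4, which oxidises myo-inositol, by 3.89. AT1G70080 and AT1G09500, with no gene name in the annotation used, rose by 3.94 and 3.66. Every one of the 12 features with the largest rise was called whichever of the 6 arrays was left out, and all but MIOX4 (adjusted p = 0.0588) with slide as a random block. Other features of the same locus were weaker in places: a second THA1 feature rose by 2.35 (adjusted p = 0.0191), while the last one differed by 0.098 (adjusted p = 0.855). For AT1G09500 the other features differed by 3.117 (adjusted p = 0.0129) and 0.121 (adjusted p = 0.913).

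**Figure D2:**
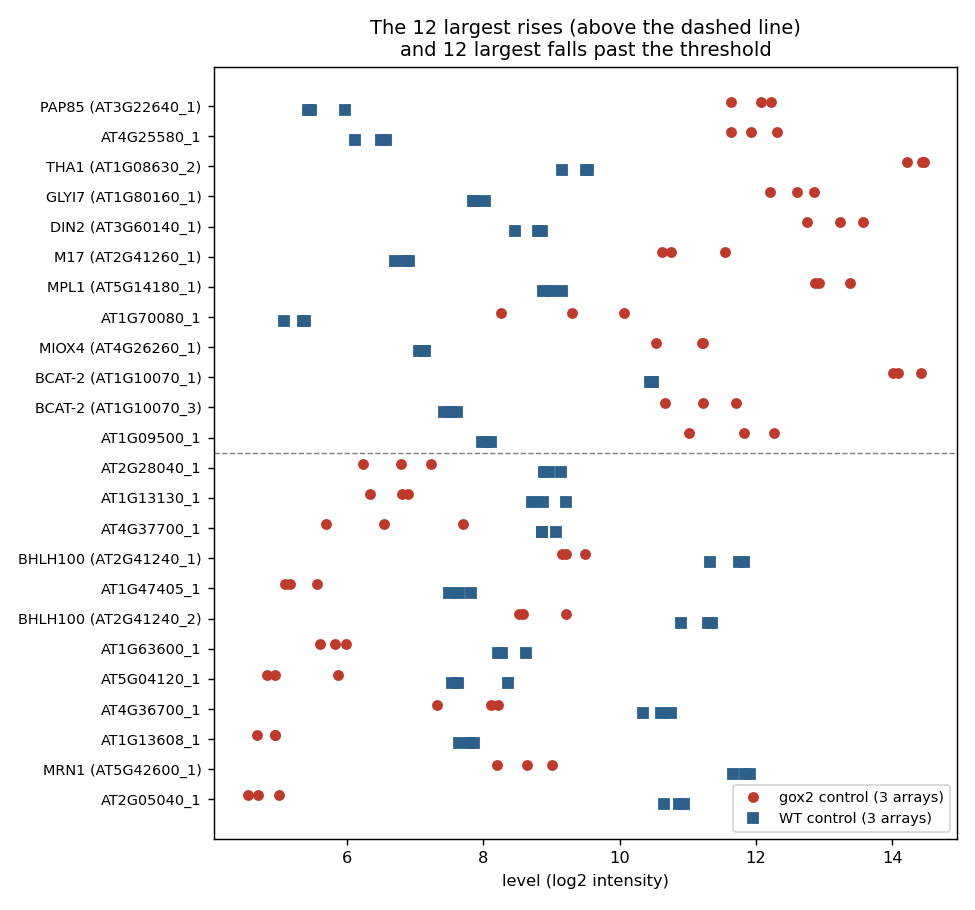
Levels (log2 intensity, x axis) of the 12 features with the largest rise, above the dashed line, and the 12 with the largest fall, below it, on the 3 gox2 control arrays (circles) and the 3 WT control arrays (squares). Features were picked among those whose groups did not overlap, and the widest gaps are those of PAP85 (difference 6.35) and AT2G05040 (difference -6.07).

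Genes known to be switched on by darkness and sugar starvation were mostly higher. Of 20 measured, 13 rose and none fell, with a median of 0.79, beside 11.8% of all loci higher. This list too was chosen with earlier results of these data known. DIN2, a dark-inducible beta-glucosidase, read 12.75, 13.57 and 13.23 in gox2 control and 8.46, 8.81 and 8.86 in WT control, a rise of 4.48 ± 0.958 (SE, n = 3 each, adjusted p = 0.00237). BCAT-2, an aminotransferase of branched-chain amino acids, read 14.08, 14.42 and 14.01 against 10.44, 10.49 and 10.48, a rise of 3.70 (adjusted p = 0.00315). IVD, which oxidises isovaleryl-CoA from leucine, rose by 1.39 (adjusted p = 0.00667), and ASN1, the dark-inducible asparagine synthetase, read 15, 15.03 and 14.82 against 13.59, 13.69 and 13.46, a rise of 1.37 (adjusted p = 0.0247). For all 4 the lowest gox2 array lay above the highest WT array.

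Further members, picked after their values were seen because they belong to the same breakdown of branched-chain amino acids, were the dehydrogenase subunit DIN4 (1.31, adjusted p = 0.0126), the carboxylase subunits MCCA (1.16, adjusted p = 0.0309) and MCCB (0.588, adjusted p = 0.0530), and ETFQO (0.864, adjusted p = 0.0403), which hands their electrons to the respiratory chain. MCCB did not pass the threshold. Members of the list that also did not pass were DIN10 (-0.002), TPS8 (-0.125) and GDH1 (0.120), while GDH2 rose by 0.34. The list's mean, centred over the 27 arrays, was 0.71, 0.88 and 0.62 in gox2 control and -0.30, -0.27 and -0.27 in WT control. Its count of rises was 7 without gox2 control replicate 2 or without WT control replicate 2, 8 without WT control replicate 1, and 5 with slide as a random block.

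**Figure D3:**
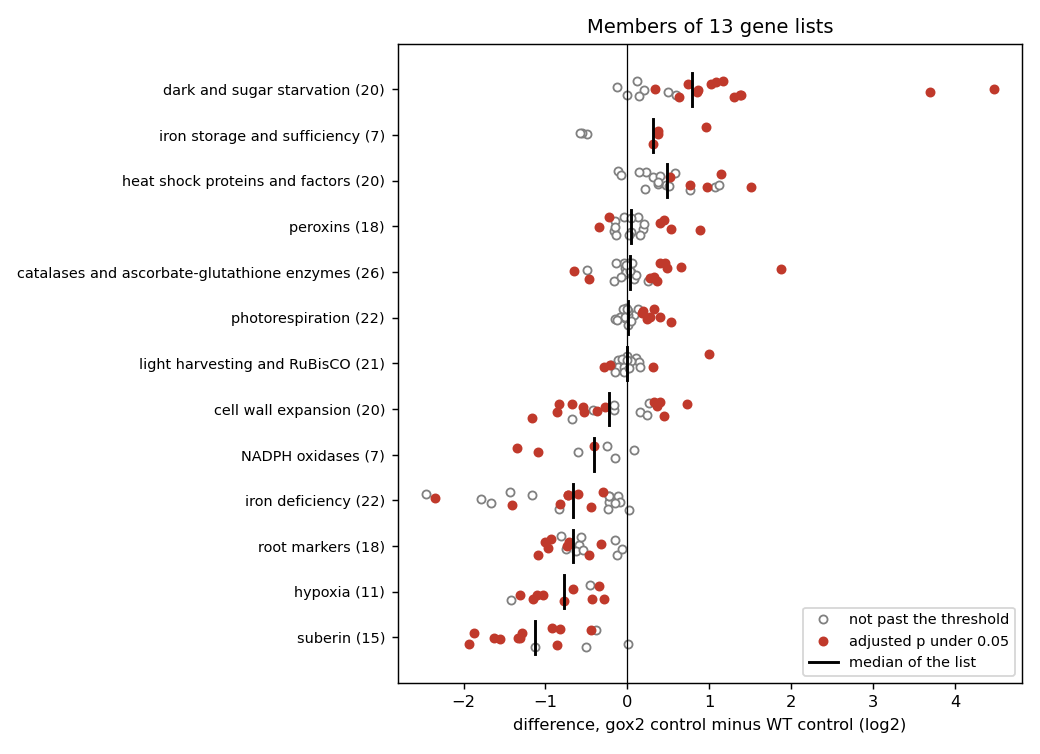
Difference between gox2 control and WT control (log2, x axis) for each measured member of 13 gene lists (y axis, with the number of members), filled where the adjusted p was under 0.05, and the median of each list as a bar. Dark and sugar starvation genes lie mostly above 0 (median 0.79), and suberin (median -1.13), hypoxia (median -0.77) and root markers (median -0.67) below it.

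The 12 largest rises were not particular to the gox2 control arrays. On 3 of the other 21 arrays, labelled gox2 Cd 24 h replicate 1 and 35S::GOX2 Cd 24 h replicates 1 and 3, all 12 features lay nearer the gox2 control mean than the WT control mean. On each of the other 18 arrays at most 2 of the 12 did so. PAP85 was between 11.64 and 12.69 on those 6 arrays and between 5.43 and 6.93 on the other 21. DIN2 and AT1G09500 were the exceptions, on the gox2 side on 12 and 8 of the other 21 arrays. For DIN2 these included all arrays labelled WT Cd 24 h and gox2 Cd 30 min.

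**Figure D4:**
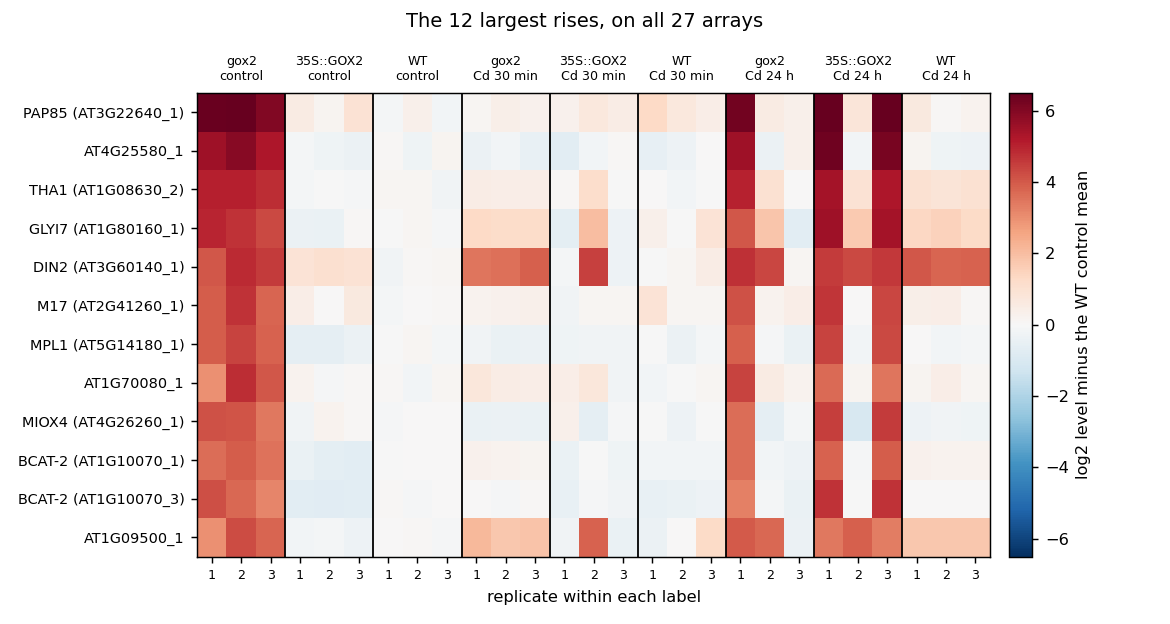
Level of the 12 features with the largest rise (rows) on all 27 arrays (columns, by label and replicate), as log2 difference from the WT control mean in colour. The 3 gox2 control arrays share their high levels with 3 further arrays, 1 labelled gox2 Cd 24 h and 2 labelled 35S::GOX2 Cd 24 h, in all 12 rows.

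PAP85 was the only one of 13 seed and embryo markers that rose, though the list's median was 0.69. The storage globulin CRU3 read 5.33, 8.10 and 7.58 in gox2 control and 5.32, 5.76 and 5.41 in WT control, so that replicate 1 sat among the WT arrays (adjusted p = 0.152). The embryo protein EM1 and the oleosin OLEO2 stayed between 4.36 and 5.59 on all 6 arrays. Of 6 floral markers SEP3 rose, by 0.71 (adjusted p = 0.00153), but its second feature differed by -0.017 (adjusted p = 0.957). Of 6 stomatal markers the guard cell factor MYB60 rose by 0.66 (adjusted p = 0.00735), and its second feature differed by 0.466 (adjusted p = 0.0847). The seed, floral and stomatal counts stand beside 11.8% of all loci higher. In bulk tissue fewer cells of a type and less RNA per cell cannot be told apart, which bears on every marker list here.

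The largest fall was that of AT2G05040, with 4.69, 4.55 and 5.01 in gox2 control, against 10.94, 10.87 and 10.65 in WT control. It differed by -6.07 ± 1.131 (SE, n = 3 each, adjusted p = 0.000939), and its gox2 control levels lie in the range of the seed genes EM1 and OLEO2, so no fold is given. Over the series this feature had no middle levels either: it lay between 4.55 and 5.39 on 18 arrays, and between 10.28 and 10.94 on 9. The high ones were all arrays labelled WT control and WT Cd 24 h together with gox2 Cd 24 h replicate 3 and 35S::GOX2 Cd 30 min replicates 1 and 3. The arrays labelled WT Cd 30 min were among the low ones, at 4.93, 4.95 and 4.70.

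MRN1, which makes the triterpene marneral, read 9.01, 8.64 and 8.20 in gox2 control and 11.84, 11.91 and 11.67 in WT control, and it fell by 3.19 on the log2 scale (adjusted p = 0.0110). AT1G13608 fell by 2.91 and AT1G63600 fell by 2.56, both called whichever array was left out and with slide as a random block. AT4G36700 fell by 2.67 (adjusted p = 0.0433), a call lost whichever of the 6 arrays was left out. AT5G04120 read 5.87, 4.83 and 4.95 against 7.54, 7.63 and 8.37, and fell by 2.63 (adjusted p = 0.00364). AT1G47405, AT1G13130 and AT2G28040 fell by 2.38, 2.25 and 2.24. Most of these loci carry no gene name in the annotation used. These falls were not particular to the gox2 control arrays either. Of the other 21 arrays, 13 lay nearer the gox2 control mean for AT1G63600, AT4G36700 and AT5G04120. The number was 12 for MRN1 and AT1G47405, 11 for AT2G28040, 10 for AT1G13130 and 9 for AT1G13608. MRN1 read 9.23, 8.93 and 9.26 on the arrays labelled WT Cd 24 h.

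Suberin genes fell. Suberin is the waxy polyester of root endodermis and of wound surfaces, built from long fatty acids and phenolics. Of 15 genes 11 fell and none rose, with a median of -1.13, and all 11 were called whichever array was left out, against 7.09% of all loci with such a fall. The list was chosen with earlier results of these data known, so this share describes it and tests nothing. With slide as a random block 10 remained. ABCG6, a transporter of suberin precursors, read 9.68, 9.48 and 9.27 in gox2 control, against 11.33, 11.42 and 11.29 in WT control, and it fell by 1.87 on the log2 scale (SE 0.229, n = 3 each, adjusted p = 6.24e-05). The fatty acid hydroxylase CYP86B1 read 9.20, 8.40 and 8.61 against 10.37, 10.27 and 10.48, and fell by 1.63 (adjusted p = 4.64e-05). Its relative CYP86A1 fell by 1.56 (adjusted p = 0.00181). MYB41, a transcription factor that activates suberin genes, read 6, 6.5 and 6.04 against 8.19, 8.20 and 7.97, and fell by 1.94 (adjusted p = 0.00247).

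The list mean was -0.64, -0.69 and -0.64 in gox2 control, against 0.38, 0.42 and 0.42 in WT control, so the replicate 1 array lay with its group here. The members that did not pass were MYB39 (-1.126, adjusted p = 0.111), FAR1 (-0.509), KCS2 (-0.388) and KCS20 (0.013), the last 2 being elongases that also serve other waxes.

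Root markers fell as well. Of 18 genes known from root hairs, endodermis and other root tissue 9 fell and none rose, with a median of -0.67. Of all loci 15.2% were lower, and this list was also chosen with earlier results of these data known. RHD2, the NADPH oxidase of root hair tip growth, read 11.66, 11.50 and 11.72 in gox2 control and 12.69, 12.79 and 12.66 in WT control, and fell by 1.09 on the log2 scale (SE 0.185, n = 3 each, adjusted p = 0.000494). The root hair cell wall genes SHV2 and EXPA18 fell by 1 and 0.97, and RSL4, a regulator of root hair growth, read 9.72, 9.72 and 9.74 against 10.59, 10.80 and 10.56, a fall of 0.93 (adjusted p = 0.00163). PYK10, an abundant root and hypocotyl beta-glucosidase, read 15.57, 15.57 and 15.59 against 15.68, 15.71 and 15.71 (adjusted p = 0.0656). The count of falls was 6 or 7 with any array left out, 6 with slide as a random block, and 14 in a fit of only the 6 arrays compared. PYK10 was bright on all 6 arrays, although the tissue is labelled leaves.

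The list mean of root markers was -0.21, -0.10 and -0.08 in gox2 control and 0.44, 0.55 and 0.49 in WT control. The share of root tissue in each pool was not measured, and its part in the falls of suberin, root hair and iron uptake genes was not tested. Of 21 light-harvesting and RuBisCO genes, which stand for green tissue, 2 rose and 2 fell, with a median of 0.00. These counts lie near the shares over all loci, 11.8% higher and 15.2% lower, and are no result about the list. RBCS1B rose by 1 (adjusted p = 0.000481), and LHCB4.2 fell by 0.28 (adjusted p = 0.00260).

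NADPH oxidases make superoxide at the plasma membrane. Of 7 measured 3 fell and none rose, beside 15.2% of all loci lower. RBOHB read 13.09, 12.40 and 12.37 in gox2 control and 13.91, 14.05 and 13.97 in WT control, and fell by 1.35 (SE 0.189, n = 3 each, adjusted p = 0.000140). RBOHD, the isoform best known from immunity and systemic signals, read 14.77, 14.58 and 14.63 against 15.02, 15.11 and 15.08, a fall of 0.41 (adjusted p = 0.00380). Both calls, and that of RHD2, held whichever array was left out and with slide as a random block.

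Among iron deficiency genes, 22 were measured, of which 8 fell and none rose, with a median of -0.66, beside 15.2% of all loci lower. BHLH100, a transcription factor induced when iron is short, read 9.49, 9.21 and 9.16 in gox2 control and 11.33, 11.82 and 11.75 in WT control, and fell by 2.35 (adjusted p = 0.0166). IRT2 and MTPA2, metal transporters of the root, fell by 1.41 (adjusted p = 0.00381) and 0.73 (adjusted p = 0.00119), and the regulator MYB10 by 0.83 (adjusted p = 0.00540). A second IRT2 feature differed by -0.502 (adjusted p = 0.0932), with arrays that overlapped between the groups. The uptake genes IRT1 and FRO2 gave -0.837 (adjusted p = 0.450) and -1.164 (adjusted p = 0.352). Their arrays lay lower in gox2 control without overlap, as did those of 24.4% of all features. The 95% confidence intervals ran from -2.48 to 0.80 and from -3.04 to 0.72. These intervals take their spread from all 9 groups. The count of falls was 5 without gox2 control replicate 2, WT control replicate 2 or WT control replicate 3, 4 without gox2 control replicate 3, and 5 with slide as a random block. It was 13 in a fit of only the 6 arrays compared and 18 in a fit without the arrays labelled gox2 Cd 24 h, 35S::GOX2 Cd 30 min and 35S::GOX2 Cd 24 h.

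Of 7 genes of iron storage and sufficiency 4 rose, beside 11.8% of all loci higher. They were the ferritins FER1 (0.31, adjusted p = 0.0148), FER3 (0.37, adjusted p = 0.00438) and FER4 (0.38, adjusted p = 0.0148), which store iron in plastids, and NEET, an iron-sulfur protein. NEET read 12.37, 12.19 and 12.22 in gox2 control and 11.37, 11.32 and 11.23 in WT control, a rise of 0.95 ± 0.142 (SE, n = 3 each, adjusted p = 0.000205). The other 3, all of the vacuolar iron transporter-like family, differed by -0.499 to -0.574 and did not pass the threshold. Their arrays too lay lower in gox2 control without overlap, as did those of 24.4% of all features. FER1 and FER4 were not called with slide as a random block, at adjusted p of 0.0816 and 0.0609.

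Several lists depended on which gox2 control array was read. Of 1402 features with a range of at least 1 among the gox2 control arrays, replicate 1 was the array farthest from the median of the 3 in 931 and replicate 3 in 345. Replicate 1 was also the one nearest the WT control mean in 1020. Among the 12 features with the widest range was IAA29, an auxin-induced repressor, at 12.21, 8.58 and 9 in gox2 control and 12.13, 12.24 and 12.22 in WT control. PIL1, a marker of shade and phytochrome signalling, read 12.03, 8.94 and 8.75 against 12.01, 12.04 and 12.16, and SRO4 read 12.72, 9.34 and 9.43 against 12.61, 12.54 and 12.66. In these genes replicate 1 lay at the WT level and the other 2 well below it. In the opposite direction, AT1G22810 read 6.59, 9.63 and 9.13 against 6.74, 6.63 and 6.40.

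Hypoxia genes showed this split. Of 11 genes 9 fell and none rose, with a median of -0.77, beside 15.2% of all loci lower. SUS4, a sucrose synthase induced at low oxygen, read 14.36, 12.90 and 13.13 in gox2 control and 14.77, 14.76 and 14.79 in WT control (adjusted p = 0.00540), and the plant cysteine oxidase gene AT5G39890, an oxygen sensor, read 13.81, 12.37 and 12.59 against 14.16, 14.04 and 14.04 (adjusted p = 0.00198). In both, replicate 1 was lower than WT but by far the least so. The list mean was 0.24, -0.85 and -0.72 in gox2 control and 0.39, 0.34 and 0.39 in WT control. The count of falls was 10 without gox2 control replicate 1 but 5 without gox2 control replicate 2, gox2 control replicate 3 or WT control replicate 3, and 3 with slide as a random block. Of 8 auxin response genes WES1 fell, by 0.75 (adjusted p = 0.00351). Without gox2 control replicate 1, 6 auxin response genes fell, and the list mean was 0.32, -1.17 and -1.03 in gox2 control, against 0.15 to 0.22 in WT control.

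Heat shock and rapid stress genes showed the same split upward. Among 20 genes for heat shock proteins or their factors there were 5 rises and no falls, with a median of 0.49, and 13 rose without gox2 control replicate 1. In the main fit 11.8% of all loci were higher. HSP17.6II, a class II small heat shock protein, read 11.33, 12.52 and 12.27 in gox2 control and 10.77, 10.40 and 10.44 in WT control, a rise of 1.51 ± 0.224 (SE, n = 3 each, adjusted p = 0.000204). HSP17.6A rose by 1.15 and HSP17.4 by 0.98, and in all 3 the replicate 1 array lay between WT and the other gox2 arrays. The heat shock list mean was -0.25, 0.61 and 0.41 in gox2 control, against -0.27 to -0.33 in WT control.

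Of 22 rapid stress genes 4 rose, namely the xyloglucan hydrolase TCH4 (1.04), the zinc fingers STZ (1.12) and RHL41 (0.46) and the transcription factor MYB15 (0.68), and 11 rose without gox2 control replicate 1. Only 2 rose without gox2 control replicate 2, and likewise 2 without gox2 control replicate 3. The 4 rises stand beside 11.8% of all loci higher. LSU2, a marker of sulfur shortage, read 10.60, 12.71 and 12.90 in gox2 control and 10.93, 10.71 and 10.78 in WT control, so that its rise of 1.26 (adjusted p = 0.0431) rested on the other 2 arrays.

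**Figure D5:**
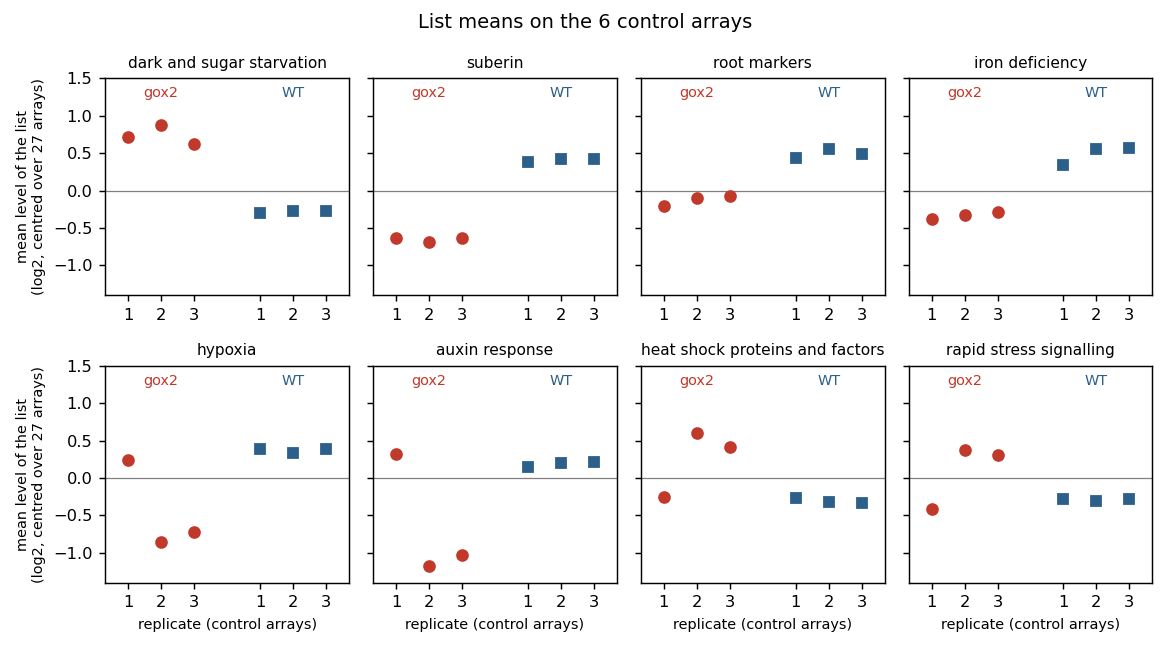
Mean level of 8 gene lists (log2, centred over the 27 arrays, y axis) on each of the 3 gox2 control arrays (circles) and the 3 WT control arrays (squares). For dark and sugar starvation, suberin, root markers and iron deficiency the groups are apart on every array, whereas for hypoxia (0.24, -0.85 and -0.72 in gox2 control), auxin response, heat shock and rapid stress the replicate 1 array lies near WT control.

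The lists from here to the comparison after Cd are given as counts, beside 11.8% of all loci higher and 15.2% lower. Counts near those shares are not results about a list. Of 20 cell wall expansion genes 5 rose and 8 fell. The expansins EXPA8, EXPA1 and EXPA11 fell by 1.17, 0.86 and 0.83, with EXPA8 at 12.22, 11.32 and 11.40 in gox2 control, against 12.70, 12.88 and 12.87 in WT control. The xyloglucan enzyme XTH19 rose by 0.72 (adjusted p = 0.0424), although its arrays overlapped between the groups and the call held in 1 of the 6 fits with an array left out. The counts were 2 rises and 5 falls without gox2 control replicate 2, and 1 and 4 with slide as a random block. Among 19 flavonoid and anthocyanin genes 4 rose and 1 fell: the anthocyanin regulator PAP1 rose by 1.08, the vacuolar transfer protein GSTF12 by 0.69 and the glycosyltransferase UF3GT by 0.68, while the flavonol regulator MYB12 fell by 0.67. There were 8 rises in a fit of only the 6 arrays compared.

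The clock genes ELF4 (0.80), RVE8 (0.61), PRR3 (0.31) and AT3G54500 (0.27) rose, 4 of 18, and no clock gene fell. Second features of RVE8 and AT3G54500 differed by 0.096 (adjusted p = 0.521) and 0.296 (adjusted p = 0.101). Without gox2 control replicate 1 there were 7 rises and 1 fall, without WT control replicate 2 there were 3 and 1, and with slide as a random block 2 rises. Abscisic acid, cold and drought genes went both ways, with 3 rises and 4 falls among 20. LTP4, a lipid transfer protein, read 11.27, 9.55 and 9.20 in gox2 control and 8.76, 8.23 and 8.43 in WT control (1.53, adjusted p = 0.00251), and RAB18, a dehydrin, rose by 1.51, whereas KIN1 and KIN2 fell by 0.66 and 0.57. Of 38 glutathione S-transferases 4 rose, led by GSTU21 (1.3) and GSTF3 (0.83), and 1 fell, against 10 and 3 in a fit of only the 6 arrays compared. Jasmonate genes counted 2 rises, among them the biosynthesis enzyme AOC1 (0.48), and 6 falls, among them the storage proteins VSP2 and VSP1 (0.74 and 0.61 lower), in 29, with a median of 0.16. The jasmonate counts were 7 rises and 5 falls without gox2 control replicate 1, 2 and 2 without gox2 control replicate 2 or WT control replicate 2, 2 and 3 without gox2 control replicate 3 or WT control replicate 3, 2 and 4 without WT control replicate 1, and 2 and 2 with slide as a random block. Salicylate and pipecolate genes counted 1 rise and 5 falls in 17, with ALD1, which makes the pipecolate precursor, at 6, 5.56 and 5.30 in gox2 control, against 6.94, 6.94 and 7.10 in WT control (adjusted p = 0.0239). The ALD1 call held in 1 of the 6 fits with an array left out. Falls on this list numbered 0 without gox2 control replicate 2, 1 without gox2 control replicate 3, 2 without WT control replicate 2 or WT control replicate 3, and 1 with slide as a random block.

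Sulfur assimilation and Cd chelation counted 2 rises and 4 falls in 32, with HMA2, a zinc and Cd pump, down by 1.16 (adjusted p = 0.00236) and the sulfate transporter SULTR1;1 down by 1.07 (adjusted p = 0.0211). The sulfur list had 6 rises without gox2 control replicate 1, and none without any other single array or with slide as a random block. Phosphate starvation genes counted 3 falls in 15, led by the phosphate exporter PHO1 (-0.72), and the nitrate transporter NRT1.1 fell by 0.53, the 1 call among 11 nitrate genes. The phosphate count was 1 fall without gox2 control replicate 2, WT control replicate 1 or WT control replicate 2. The remaining lists held few calls. Endoplasmic reticulum stress had 1 rise and 2 falls in 15, camalexin and indole metabolism 1 fall in 9, cell division 2 falls in 8, and mitochondrial stress no call in 8, where the most changed gene, UGT74E2, read 12.05, 12.63 and 12.28 in gox2 control, against 10.56, 10.51 and 10.65 in WT control (adjusted p = 0.0757).

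The same labels were also compared after Cd, on other arrays of the same fit and normalization. After 30 min of Cd 2846 features (7.67%) differed between gox2 and WT, and after 24 h 794 (2.14%). With slide as a random block 7 features remained called at each time. Whether the difference between genotypes changed with Cd was tested as an interaction: 10030 features (27%) passed at 30 min against control and 6 (0.0162%) at 24 h against control. At 30 min both groups were among those whose GOX2 level was low, and gox2 Cd 24 h held arrays nearest to other labels, so these comparisons carry the same doubt.

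By locus, 3.28% were higher and 4.21% lower in gox2 at 30 min, and 0.956% and 1.2% at 24 h. Of 3853 loci higher in gox2 control, 91 (2.36%, and 8.5% of the 1070 higher at 30 min) were also higher at 30 min, and 474 were lower there. At 24 h 217 (5.63%, and 69.6% of the 312 higher at that time) were also higher and 2 lower. Of 4955 loci lower in gox2 control, 70 (1.41%, and 5.1% of 1372) were also lower at 30 min and 240 were higher, while at 24 h 288 (5.81%, and 73.8% of 390) were also lower and 1 was higher. The 794 features called at 24 h became 30 without gox2 Cd 24 h replicate 1 and 57 without WT Cd 24 h replicate 1. The former array correlated at r = 0.70 and 0.69 with gox2 control replicates 2 and 3. Its part in the shared calls was not tested. The iron storage genes gave a median of 0.31 in control with 4 rises, -0.82 at 30 min with 6 falls and no rise, and 0.82 at 24 h with 4 rises. Suberin genes had medians of -1.13, -0.05 and -0.50, and dark and sugar starvation genes of 0.79, 0.07 and 0.05, in the same order of control, 30 min and 24 h.

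CSD2 differed by 1.88 in control, 0.35 at 30 min and 0.39 at 24 h, and PEX11D by 0.89, -0.11 and 0.26. For both the interaction at 30 min passed the threshold (adjusted p = 0.0404 and 0.000733). NEET differed by 0.95 in control, -1.08 at 30 min and 1.39 at 24 h (interaction at 30 min, adjusted p = 1.47e-05). DIN2 differed by 4.48, 3.45 and -0.81, with no interaction past the threshold at 30 min (adjusted p = 0.599). These genes were named for their difference in control, which the interaction subtracts, so its tests are not independent of that choice.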

How the data were processed

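Total RNA was labelled with Cy3 and hybridised to NimbleGen expression arrays, 3 per group. Per the file headers, the authors deposited 1 RMA intensity per feature on a linear scale, summarised mostly over 3 or 4 probe pairs. Software versions and the genome build are not given in the sources used here, and limma is named in the submitters' notes without a version. The deposited intensities were taken to log2 and quantile-normalised over 27 arrays, because array medians spread by 0.15 (10.02 to 10.17). One mean per group was fitted to all arrays in limma 3.58.1 (R 4.3.3, jsonlite 2.0.0), with moderated two-sided tests and Benjamini-Hochberg adjustment over 37118 features. Arrays have no read depth, and their number, 3 per group, limits the precision. Symbols came from RefSeq (TAIR10.1), which held 31993 of 32627 loci, and of 575 list members written 547 were used. Members and lists were chosen with earlier results of these data known. Genes named were the 12 largest rises and falls whose arrays did not overlap, the same among calls kept with every array left out, the GOX family and photorespiration, up to 4 called members of each list, and the 12 widest ranges among gox2 control arrays. Other genes named, CCS and list members given mainly because they did not pass, were chosen after their values were seen. Replicate numbers were not treated as pairs in the main fit. Alternatives were the deposited scale, the series value table, dim features left out, locus means, replicate and slide blocks, fewer arrays, a fold limit, the methods' t-test and single arrays left out. The procedure was tested on simulated data.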

Additional observations from a re-analysis of the deposited data

Results flagged for a closer look

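The difference between gox2 and WT was itself tested between Cd and control. It differed at 30 min of Cd for 10030 features (27%) and at 24 h for 6 (0.0162%), and for 71 of the 156 named features at 30 min and none at 24 h. Many named features were chosen for their call in control, which the interaction subtracts, so their count may be raised by that choice. GOX2 was among the 71, its difference lying 0.76 lower at 30 min than in control (-0.76 on the log2 scale, adjusted p = 0.00316). The interaction also passed at 30 min for 12 of the 24 largest changes, which were chosen for their difference on the same control arrays. A value of opposite sign therefore follows largely from that choice. The difference at 30 min minus that in control was -6.89 for PAP85, -5.65 for AT4G25580, -4.46 for THA1, -4.26 for M17, -4.24 for MPL1, -4.17 for MIOX4, -3.81 for GLYI7, -3.35 for AT1G70080 and -3.30 for BCAT-2, all higher in gox2 control. It was 6.08 for AT2G05040, 2.79 for AT1G13130 and 2.45 for AT2G28040, all lower in gox2 control. At 30 min itself none of these 12 passed the threshold, and gox2 minus WT was -0.54 for PAP85, 0.83 for GLYI7, 0.01 for AT2G05040 and 0.54 for AT1G13130. Treating the slide as random left 109 features at 30 min and 2 at 24 h. The part of arrays that stand nearer another label in these differences was not tested.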

How the results depend on the processing

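The 9996 calls between gox2 control and WT control became 4157 with slide as a random block, 1280 at a log2 difference of at least 1, 4286 with the methods' t-test after adjustment (12751 before), and 5783 to 10424 when single arrays were left out. A fit of only the 6 arrays gave 8274 calls, and one without the arrays labelled gox2 Cd 24 h, 35S::GOX2 Cd 30 min and 35S::GOX2 Cd 24 h gave 14732. The deposited scale gave 10187 calls, 4165 higher and 6022 lower. The replicate block gave 10190 calls. Same-numbered arrays deviated together at r = 0.02, 0.05 and 0.14, and arrays of unlike number at -0.12 to 0.06. Such values cannot show whether the numbers pair samples. GOX2 rose by 0.36 to 0.46 with single arrays left out, 0.44 with the slide block (adjusted p = 0.0737), and stayed below a difference of 1 (0.40). No named feature changed direction under any alternative where it was called. Among 155 named features besides GOX2, 51 lost their call with the slide block and 58 with the adjusted t-test. The 155 include features with no call in the main fit, so the share lost among called ones is larger. At 30 min the 2846 calls became 7 with the slide block and 421 to 2913 with arrays left out (421 without WT Cd 30 min replicate 1), and at 24 h the 794 became 7 with that block, 30 when gox2 Cd 24 h replicate 1 was left out, and 4808 when its replicate 2 was. The 10030 and 6 interaction calls became 109 and 2 with the slide block, while the replicate block gave 3340, 889, 10102 and 4 for these results.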
